A study of Homo sapiens with 6 samples.

Results

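The 47 genes described here encode the constitutive proteasome, its activators and inhibitor, and the chaperones that assemble it, measured in THP-1, an established human line of monocytic leukaemia cells. They are all rows of the count table whose symbol starts with PSMA, PSMB, PSMC, PSMD, PSME, PSMF or PSMG, of 23710 rows in all, without the interferon-induced subunits PSMB8, PSMB9 and PSMB10 and without antisense names ending in AS1. The name rule also takes 2 rows that are no proteasome part: PSMC3IP, a factor of homologous recombination named after its binding to PSMC3, and PSMD6-AS2, an RNA antisense to PSMD6. The cells were cultured for 6 h with 10 uM mebendazole, a benzimidazole drug that binds tubulin, or with the vehicle DMSO. There were 3 libraries per group, in 3 labelled pairs of 1 DMSO and 1 mebendazole library, made from total RNA. All libraries come from 1 cell line, and no label states that the pairs came from separate cultures, so the tests measure the spread between these libraries, which may be technical.

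The proteasome degrades proteins tagged with ubiquitin. Its 20S core is a barrel of alpha rings, which gate the entry, around beta rings, which hold the cutting sites. The 19S cap adds a base, whose ATPases unfold the substrate, and a lid, which removes the ubiquitin chain. Activators of the PSME family can bind the core in place of the 19S cap. In human cells the subunit genes can be raised together by the transcription factor NRF1, encoded by NFE2L1, when proteasome capacity falls short, and in immune cells interferon replaces the catalytic subunits with induced ones.

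Library totals ranged from 13420558 to 15727667 reads, and members took 0.511% to 0.527% of the reads in the DMSO libraries and 0.418% to 0.422% with mebendazole. Levels are given as CPM, read counts per unit of library size after TMM scaling, which sets libraries to a common scale from the bulk of genes. Markers of the monocytic line summed to 1439 to 1519 CPM in DMSO and 1395 to 1431 CPM with mebendazole, but the 8 genes did not move together. Of these markers 6 were called lower, CD33 from 89.2 ± 2.23 to 26.3 ± 1.203 CPM and CD14 from 19.6 ± 0.482 to 9.38 ± 1.17 CPM among them, SPI1 was higher, from 323 ± 13.6 to 638 ± 8.33 CPM, and MPO was not called. The lists of T cells, B cells, NK cells, epithelium, fibroblasts and red cells reached at most 6.06 CPM per list. That maximum was the NK list, at 0.823 to 1.51 CPM in DMSO and 4.32 to 6.06 CPM with mebendazole. Nearly all of the NK sum was NCAM1, while KLRD1 had at most 4 reads in a library. The endothelial list summed to 89.0 to 101 CPM in DMSO and 124 to 146 CPM with mebendazole, nearly all of it PECAM1, which monocytes also express, and the part of these markers in the results was not tested. DMSO replicate 1 held 105 reads of RMRP and 126 of RPPH1, RNAs without a poly(A) tail, against 1 to 5 reads of each in the other libraries, and without its pair 14 members were called higher and 24 lower. Fewer cells of a type and less RNA per cell cannot be told apart in bulk RNA.

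The proteasome genes changed little in size and not in 1 direction. Of 45 tested members, 15 were called higher and 24 lower with mebendazole, and 6 were not called (edgeR quasi-likelihood test, adjusted p under 0.05). The background was high, since 82.3% of the 13591 genes tested were called, 40.6% higher and 41.7% lower. The libraries of both groups did not overlap for 39 of the 45 members, against 82.4% of all genes tested. The median log2 fold change was -0.14 for the members and -0.03 for all genes tested. The members lay in a narrower band than genes at large, with 34 of 45 (75.6%) within 0.5 of 0 on the log2 scale, against 43.2% of all genes. The genes at large were not matched to the members for expression level. Only PSMA3 and PSMG4 changed by more than 1, and in a test against a 1.5-fold change 3 members (PSMD12, PSME4 and PSMC3IP) were called higher and 4 (PSMA3, PSME2, PSMG1 and PSMG4) lower, against 21.3% and 21.2% of all genes, 42.5% in either direction.

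**Figure D1:**
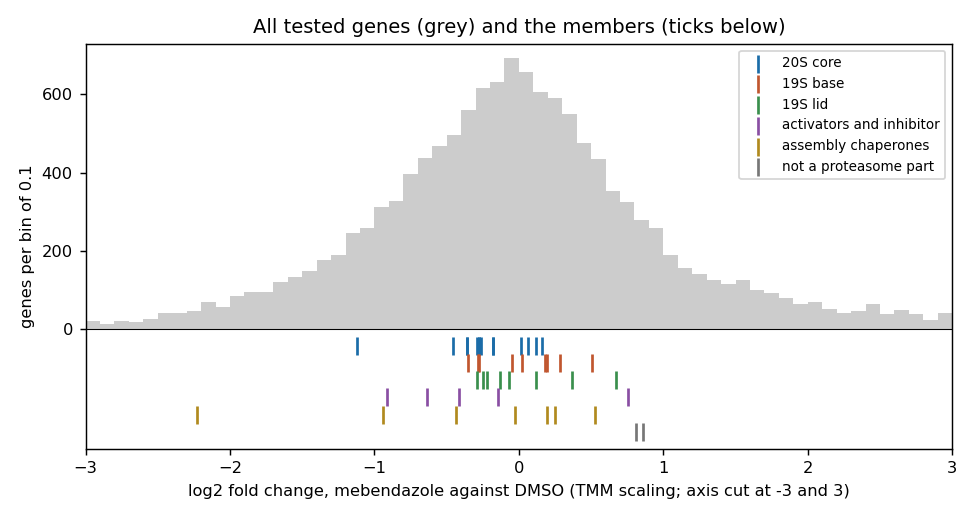
Histogram of the log2 fold change (mebendazole against DMSO, TMM scaling, axis cut at -3 and 3) of all tested genes, in grey, with 1 tick per tested member below it, coloured by role. Most ticks lie within 0.5 of 0, with PSMG4 at -2.23 and PSMA3 at -1.12 on the left.

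The direction of the small changes depended on the scale set between libraries. With library totals in place of TMM, the median log2 fold change of all tested genes was -0.27, and 6 members were called higher and 33 lower, against 30.8% and 53.9% of all genes, 84.6% in either direction. All 24 falls and 6 of the 15 rises (PSMD4, PSMD9, PSMD11, PSMD12, PSME4 and PSMC3IP) were called the same way on both scales. PSMA1, PSMB4 and PSMD7 were called higher with TMM and lower with library totals. Ratios of member genes within a library, given below with each role, do not use this scale.

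**Figure D2:**
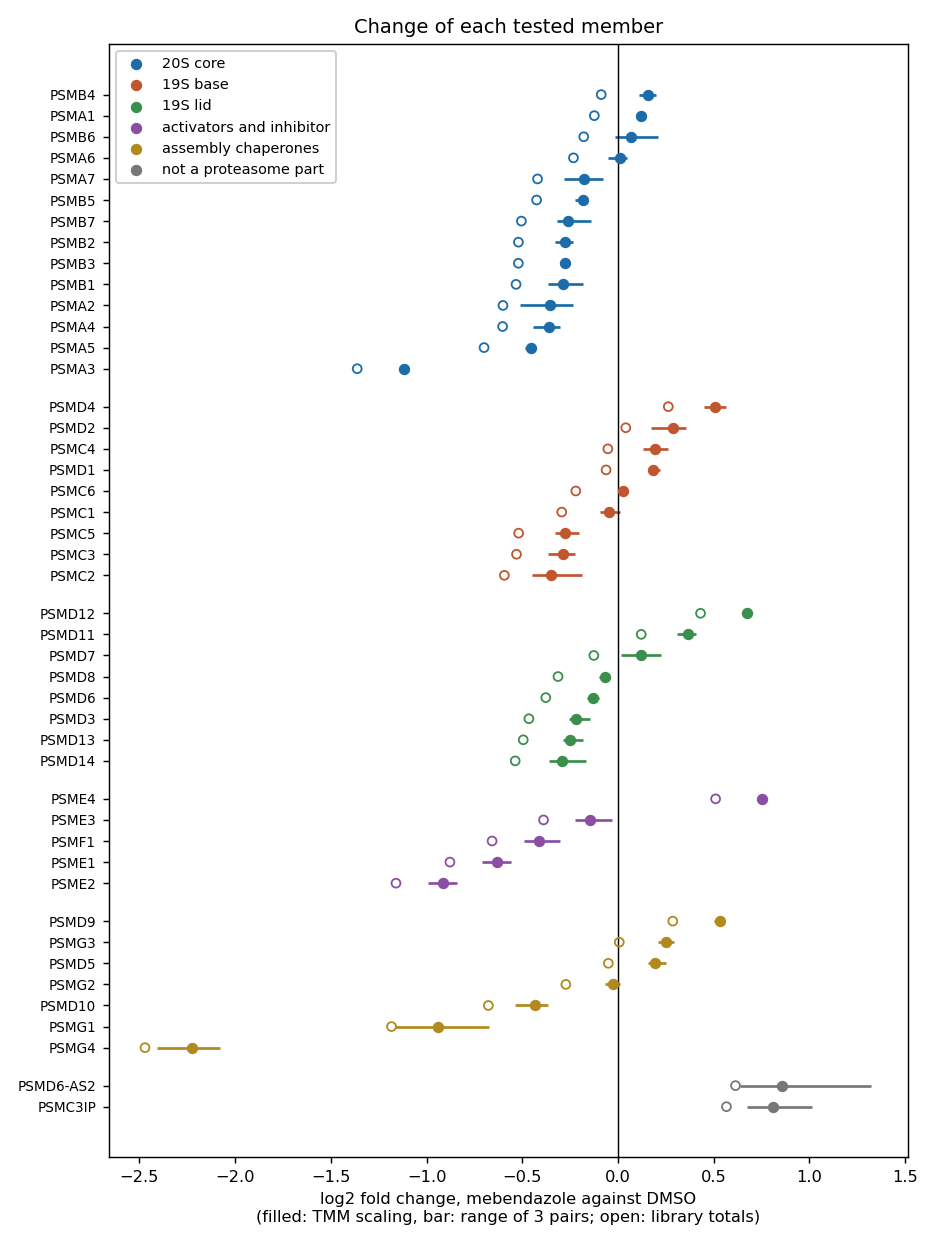
Log2 fold change of each tested member, by role. Filled points use TMM scaling, with a bar for the range of the 3 pairs, and open points use library totals. Each open point lies left of its filled point, and the falls of PSMA3 and PSMG4 and the rises of PSMD12 and PSME4 keep their side of 0 on both scales.

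Promoter windows were compared because members of one complex moved in both directions. RefSeq windows from 250 bases before to 30 bases after the transcription start (GRCh38.p14) were found for 41 of the 47 members. Of these, 6 are shown here, for some of the members whose changes stand out. Capitals mark matches, on either strand, to CCAAT (the box bound by NF-Y), to TGACNNNGC (the core of the antioxidant response element, which NRF1 and NRF2 bind) and to GAAA, any 2 bases and GAAA again (the core of the interferon-stimulated response element). No motif overlaps another in these windows, and all read 5′ to 3′ on the gene's strand.
PSMA3, chr14:58244593-58244872, plus strand: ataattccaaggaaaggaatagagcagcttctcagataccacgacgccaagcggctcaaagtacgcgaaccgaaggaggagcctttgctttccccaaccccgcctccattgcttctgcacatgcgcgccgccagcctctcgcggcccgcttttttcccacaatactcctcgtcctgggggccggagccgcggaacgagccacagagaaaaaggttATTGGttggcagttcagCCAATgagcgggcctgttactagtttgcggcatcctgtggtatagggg
PSME1, chr14:24135944-24136223, plus strand: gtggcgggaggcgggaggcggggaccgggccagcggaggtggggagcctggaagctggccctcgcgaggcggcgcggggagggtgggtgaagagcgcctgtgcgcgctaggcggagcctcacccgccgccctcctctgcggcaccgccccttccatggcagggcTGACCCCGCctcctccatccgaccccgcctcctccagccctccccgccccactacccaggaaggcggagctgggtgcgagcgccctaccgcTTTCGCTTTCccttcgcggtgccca
PSME2, chr14:24146581-24146860, minus strand: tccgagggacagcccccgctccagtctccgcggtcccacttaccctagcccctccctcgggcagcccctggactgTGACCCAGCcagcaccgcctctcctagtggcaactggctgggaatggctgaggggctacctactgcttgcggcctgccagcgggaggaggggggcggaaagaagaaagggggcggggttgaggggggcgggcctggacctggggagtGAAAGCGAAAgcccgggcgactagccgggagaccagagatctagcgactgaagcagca
PSMG4, chr6:3258697-3258976, plus strand: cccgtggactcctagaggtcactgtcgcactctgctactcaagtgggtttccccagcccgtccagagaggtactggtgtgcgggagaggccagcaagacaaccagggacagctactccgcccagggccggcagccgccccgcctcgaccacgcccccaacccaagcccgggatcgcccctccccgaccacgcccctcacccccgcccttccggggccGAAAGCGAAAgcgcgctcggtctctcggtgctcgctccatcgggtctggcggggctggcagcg
PSMD12, chr17:67366548-67366827, minus strand: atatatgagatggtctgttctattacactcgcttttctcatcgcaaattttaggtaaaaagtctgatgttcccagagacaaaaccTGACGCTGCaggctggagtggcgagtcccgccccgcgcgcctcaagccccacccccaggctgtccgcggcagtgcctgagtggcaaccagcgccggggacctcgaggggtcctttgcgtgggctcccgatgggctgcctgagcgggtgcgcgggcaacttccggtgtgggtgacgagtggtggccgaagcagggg
PSME4, chr2:53970964-53971243, minus strand: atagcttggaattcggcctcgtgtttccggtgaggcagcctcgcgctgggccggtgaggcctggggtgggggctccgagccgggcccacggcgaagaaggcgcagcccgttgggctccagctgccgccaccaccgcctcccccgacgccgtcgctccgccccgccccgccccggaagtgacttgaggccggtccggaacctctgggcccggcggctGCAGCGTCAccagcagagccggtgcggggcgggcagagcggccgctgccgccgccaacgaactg
Of the windows shown, only that of PSMA3 holds CCAAT, with 2 matches near its start. PSME1, PSME2 and PSMG4 hold an interferon-type match each. An antioxidant-type match stands in PSMD12 and PSME4, which rose, and also in PSME1 and PSME2, which fell. PSMG1, which fell and is not shown, holds CCAAT and the antioxidant-type motif.

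Among the proteasome genes with a window, CCAAT stood in 16 of the 21 called lower with TMM, in 1 of the 11 called higher (PSMD7) and in 1 of the 5 not called (PSMD8). Across all tested genes with a window, CCAAT stood in 43.4% of those called lower and 41.1% of those called higher. The median log2 fold change was -0.28 for the 18 proteasome genes with CCAAT and 0.12 for the 19 without it, against -0.04 and 0.00064 for all tested genes with and without it. The falls without CCAAT were PSMD13, PSME1, PSME2, PSMF1 and PSMG4 with TMM. With library totals, PSMA1, PSMA6, PSMB4, PSMC1, PSMC6 and PSMG2, which lack CCAAT, were also called lower, as were PSMD7 and PSMD8, which hold it. The split by CCAAT among the calls was thus weaker on that scale. The antioxidant-type motif stood in 12 of 39 proteasome gene windows (30.8%), against 14.9% of all genes with a window. It was in 7 of 21 called lower and 4 of 11 called higher, against 17.9% and 19.5% of all tested genes so called. The interferon-type motif stood in 5 of 39 (12.8%), against 4.15% of all genes with a window, 4.31% of tested genes called lower and 3.37% of those called higher. It stood in PSMA4, PSMB4, PSME1, PSME2 and PSMG4, of which PSMB4 alone was not called lower with TMM. These matches are descriptions of letters in a window, the motifs were chosen with the changes known, and no test was made.

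The 20S core was lower for most of its genes. Of 16 core genes, 14 were tested, with 10 called lower and 2 higher (median log2 fold change -0.27), and all 14 were called lower with library totals. Over all tested genes, 41.7% were called lower and 40.6% higher with TMM, and 53.9% lower and 30.8% higher with library totals. The counts of each role below stand beside the same shares. The summed level of the core genes was 1950 ± 39.7 CPM in DMSO and 1727 ± 39.0 CPM with mebendazole (SD, n = 3). PSMA8, the alpha subunit of testis, had 0 reads in all libraries, which allows up to 3 reads, or 0.0346 CPM over all libraries (counting error only). PSMB11, the catalytic subunit of the thymus, had 1 read.

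Among the alpha ring genes, which build the gated ends of the barrel, 5 of 7 tested were lower and 1 higher. PSMA3 fell most, at 106, 103 and 103 CPM in DMSO and 48.7, 46.6 and 48.5 CPM with mebendazole. The groups lay far apart, with a 2.17-fold fall (log2 fold change -1.12, SD of 3 pairs 0.03, adjusted p = 1.4e-31, edgeR), and 12.7% of all tested genes had a log2 fold change as low or lower. Within a library, PSMA3 had 0.506 ± 0.0216 reads per read of PSMA1 in DMSO and 0.215 ± 0.00656 with mebendazole. PSMA5 fell from 161 ± 1.07 to 117 ± 2.06 CPM (-0.46, adjusted p = 1.1e-16). PSMA4 (-0.36), PSMA2 (-0.36) and PSMA7 (-0.18) fell less. PSMA2 shares exon bases with a pseudogene on the other strand and with another gene annotated on its own strand, and has 3 named pseudogenes. PSMA6 has 4 named pseudogenes, and PSMA6 and PSMA1 each share exon bases with another gene on their own strand, so the values of these 3 genes are uncertain. PSMA6 did not pass the test with TMM, at 154 ± 2.47 and 155 ± 6.32 CPM, and was called lower with library totals (-0.23), and PSMA1 was called higher with TMM (0.12) but lower with library totals (-0.12).

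The beta ring genes, 3 of which encode the cutting subunits, were lower in 5 of 7 tested and higher in 1. PSMB5, the chymotrypsin-like subunit that bortezomib blocks, stood at 79.9, 73.4 and 77.1 CPM in DMSO and at 68.3, 65.9 and 69.0 CPM with mebendazole. All mebendazole libraries were below all DMSO libraries, by a log2 fold change of -0.18 (SD of 3 pairs 0.04, adjusted p = 4.7e-04, edgeR). PSMB7, the trypsin-like subunit, fell by a log2 value of -0.26 (adjusted p = 1.0e-05). PSMB6, the caspase-like subunit, was at 42.6, 39.5 and 41.5 CPM in DMSO and 42.8, 45.6 and 41.1 CPM with mebendazole, groups that overlapped (0.07, adjusted p = 0.29), and was called lower with library totals (-0.18). The non-catalytic PSMB1 (-0.29), PSMB2 (-0.28) and PSMB3 (-0.28) fell by nearly equal values. PSMB4 was called higher with TMM (0.16, adjusted p = 3.0e-05) and lower with library totals (-0.09).

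The catalytic subunits can be set against the interferon-induced ones that replace them. PSMB8 had 1.40 ± 0.0801 reads per read of PSMB5 in DMSO and 0.256 ± 0.00223 with mebendazole, PSMB9 had 0.304 ± 0.0385 and 0.0436 ± 0.00747 reads per read of PSMB6, and PSMB10 had 1.54 ± 0.0616 and 0.763 ± 0.0573 reads per read of PSMB7 (SD, n = 3).

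The 19S base held both rises and falls. Of its 6 ATPase genes, 3 were lower and 1 higher (median log2 fold change -0.16). Its 3 other genes taken by the name rule were all called higher (median 0.29). ADRM1, a base subunit outside the name rule, is counted with the partners below and was called higher on both scales. PSMD4, a ubiquitin receptor, rose from 208, 197 and 217 CPM in DMSO to 297, 292 and 296 CPM with mebendazole (log2 fold change 0.51, SD of 3 pairs 0.06, adjusted p = 3.0e-21, edgeR), and was also called higher with library totals (0.26). The scaffold genes PSMD2 (0.29) and PSMD1 (0.18) were called higher with TMM, but with library totals they were at 0.04 and -0.06 and were not called. Within a library, PSMD4 had 0.906 ± 0.0469 reads per read of PSMD2 in DMSO and 1.06 ± 0.0259 with mebendazole.

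Among the ATPases, PSMC2 fell from 88.9 ± 5.95 to 69.7 ± 2.73 CPM (-0.35, adjusted p = 1.8e-09), PSMC3 from 117 ± 3.70 to 95.8 ± 1.87 CPM (-0.29) and PSMC5 from 135 ± 5.21 to 112 ± 2.93 CPM (-0.27). Exons of PSMC5 share bases with FTSJ3 on the other strand. The ATPase gene PSMC4 was called higher with TMM (0.19) but was at -0.05 with library totals and not called. PSMC6 was at 69.8 ± 1.43 and 71.0 ± 1.34 CPM, and PSMC1 at 51.9 ± 1.12 and 50.2 ± 0.919 CPM, neither called with TMM and both called lower with library totals (-0.22 and -0.29). PSMC1 has 13 named pseudogenes and its annotated exons share most of their bases with NRDE2 on the other strand, so its reads may be misassigned. Summed, the 6 ATPase genes were at 549.7 ± 17.2 CPM in DMSO and 498 ± 5.87 CPM with mebendazole. The other 3 base genes taken by the name rule summed to 577 ± 18.9 and 733 ± 7.92 CPM.

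Of the 8 genes of the 19S lid taken by the name rule, 4 were lower and 3 higher (median log2 fold change -0.10). These counts lie near the shares of all tested genes (41.7% and 40.6%). The lid subunit SHFM1 (SEM1), outside the name rule, is counted with the partners below and was called lower on both scales. PSMD12, a lid scaffold subunit, rose from 62.6, 63.9 and 66.3 CPM in DMSO to 101, 101 and 105 CPM with mebendazole, 1.60-fold (log2 fold change 0.68, SD of 3 pairs 0.02, adjusted p = 1.5e-21, edgeR). PSMD11, which has a role in assembling the cap onto the core, rose from 104 ± 1.76 to 134 ± 2.41 CPM (0.37, adjusted p = 2.5e-12). Both were also called higher with library totals (0.43 and 0.12).

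PSMD14, the enzyme that cuts off the ubiquitin chain, was at 102, 102 and 108 CPM in DMSO and 91.1, 80.0 and 84.0 CPM with mebendazole, without overlap (-0.29, adjusted p = 2.9e-08). Its partner PSMD7, which carries the same fold without the cutting site, was called higher with TMM (0.12) and lower with library totals (-0.13), and lost its call without pair 1 (0.07, adjusted p = 0.16) and with a minimum mean of 10 CPM (0.08, adjusted p = 0.056). Exons of PSMD7 share bases with another annotated gene on the other strand. PSMD13 (-0.25) and PSMD3 (-0.22) fell. PSMD6 (-0.13, adjusted p = 0.0063) lost its call without pair 2 or pair 3 and in DESeq2, and PSMD8 (-0.07, adjusted p = 0.11) did not pass. PSMD8 was called lower with library totals (-0.31) and among genes with at least 10 CPM on average (-0.10, adjusted p = 0.018). The 8 lid genes taken by the name rule summed to 925 ± 25.6 CPM in DMSO and 925 ± 11.1 CPM with mebendazole on the TMM scale. With library totals 2 of the 8 lid genes were called higher and 6 lower (median log2 fold change -0.35), against 30.8% and 53.9% of all genes. Between neighbours in the lid, PSMD12 had 0.501 ± 0.00433 reads per read of PSMD13 in DMSO and 0.953 ± 0.0339 with mebendazole.

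Levels between genes were compared per kb of transcript, with the shortest principal transcript of GENCODE release 29 as the length. Subunits that occur in equal numbers in the particle did not have equal RNA levels. Across the 31 tested core, base and lid genes, the level in DMSO ranged from 11.7 CPM per kb (PSMC1) to 274 CPM per kb (PSMB4), with a median of 66.5 CPM per kb. With mebendazole the range was 11.3 to 306 CPM per kb, with the same genes at its ends. The reads of PSMC1 may be misassigned, as said above. The next lowest gene was PSMD12, at 14.6 CPM per kb in DMSO and 23.3 CPM per kb with mebendazole. This depends on the length: with all annotated exons PSMD12 was at rank 28 of the 31 genes in DMSO and rank 23 with mebendazole. On that length PSMC6 was next to PSMC1 in DMSO and PSMD6 with mebendazole. The choice of length was added after the data were seen. PSMB4, PSMB1 and PSMA7, in that order, were highest in DMSO, at 274 ± 10.4, 254 ± 11.9 and 183 ± 7.87 CPM per kb (SD, n = 3), and were also the highest when all annotated exons were taken as the length. The catalytic genes PSMB7, PSMB5 and PSMB6 stood at 61.8 ± 2.16, 59.3 ± 2.54 and 48.4 ± 1.82 CPM per kb, PSMB7 and PSMB5 within their spread of each other. With all exons as the length, PSMB5 stood above PSMB7, at 43.5 ± 1.87 and 33.9 ± 1.19 CPM per kb. PSMD4 moved from rank 4 to rank 2 of the 31 genes and PSMA3 from rank 9 to rank 23, and both also moved with all exons as the length, from rank 5 to rank 2 and from rank 15 to rank 27.

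**Figure D3:**
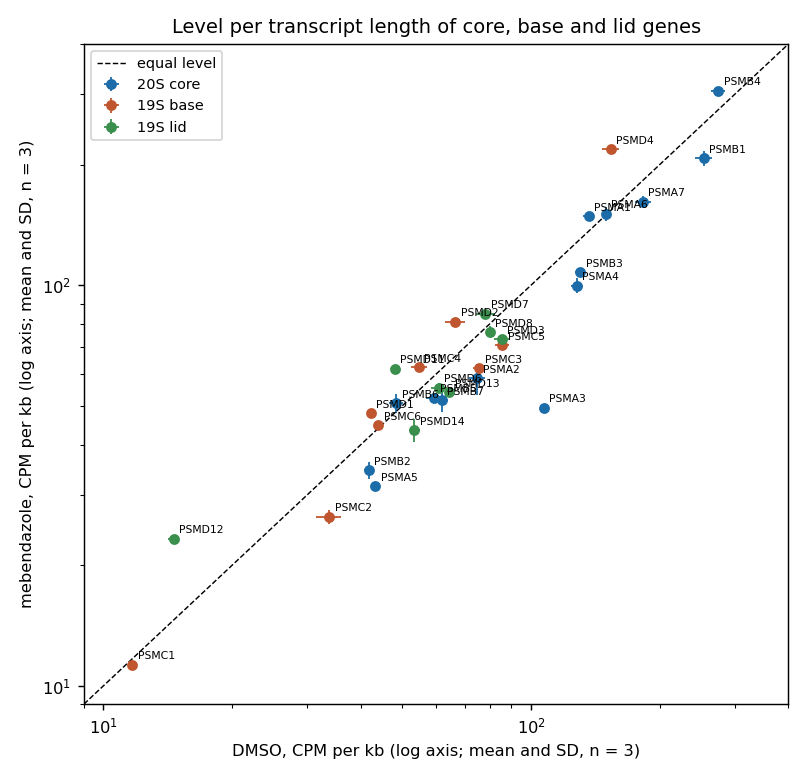
Level per kb of transcript of the tested core, base and lid genes in DMSO (horizontal, log axis) and with mebendazole (vertical, log axis), as mean and SD of 3 libraries in CPM per kb. The dashed line marks equal levels. PSMA3 lies furthest below it, and PSMD12 and PSMD4 lie above it.

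The activators went both ways. PSME1 and PSME2, which form the cytosolic ring PA28 alpha-beta and are induced by interferon gamma, fell together, PSME3, which forms the nuclear ring PA28 gamma, was slightly lower, and PSME4, the large nuclear activator PA200, rose. Of the 4 activators and the inhibitor PSMF1, 4 were lower and 1 higher, with the same calls on both scales. PSME1 was at 101, 101 and 107 CPM in DMSO and 68.4, 62.1 and 68.8 CPM with mebendazole (log2 fold change -0.63, SD of 3 pairs 0.07, adjusted p = 5.4e-20, edgeR). PSME2 was at 71.2, 71.9 and 75.4 CPM in DMSO and 39.8, 38.1 and 37.9 CPM with mebendazole (-0.92, SD of 3 pairs 0.08, adjusted p = 1.1e-24). In neither gene did the groups overlap, and both promoter windows shown above hold the interferon-type and the antioxidant-type match. PSME2 has 2 named pseudogenes and shares exon bases with RNF31 on the other strand.

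PSME3 was at 207, 190.2 and 206 CPM in DMSO and 183, 186 and 176 CPM with mebendazole (-0.14, SD of 3 pairs 0.10, adjusted p = 4.1e-04), and without pair 3 it was not called (-0.10, adjusted p = 0.068). PSME4 rose from 86.0, 87.3 and 84.0 CPM in DMSO to 144, 148 and 142 CPM with mebendazole, 1.69-fold (0.75, SD of 3 pairs 0.01, adjusted p = 5.9e-26). PSMF1, an inhibitor of the core in vitro, fell from 61.3 ± 1.29 to 46.0 ± 2.47 CPM (-0.41, adjusted p = 2.3e-10). Per kb of transcript, PSME3 was the highest of the 4 activators in both groups, at 201 ± 9.26 CPM per kb in DMSO and 182 ± 5.08 with mebendazole, and PSME4 the lowest, at 12.1 ± 0.231 and 20.4 ± 0.368 CPM per kb. PSME1 lay between them at 102 ± 3.13 and 66.0 ± 3.77 CPM per kb and PSME2 at 51.9 ± 1.60 and 27.5 ± 0.760. This order depends on the length: with all exons PSME1 stood above PSME3 in DMSO (57.9 ± 1.77 and 39.0 ± 1.79 CPM per kb) and within their spread of it with mebendazole (37.3 ± 2.13 and 35.3 ± 0.985), and PSME4 stood above PSME2 with mebendazole (14.1 ± 0.255 and 10.8 ± 0.298).

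**Figure D4:**
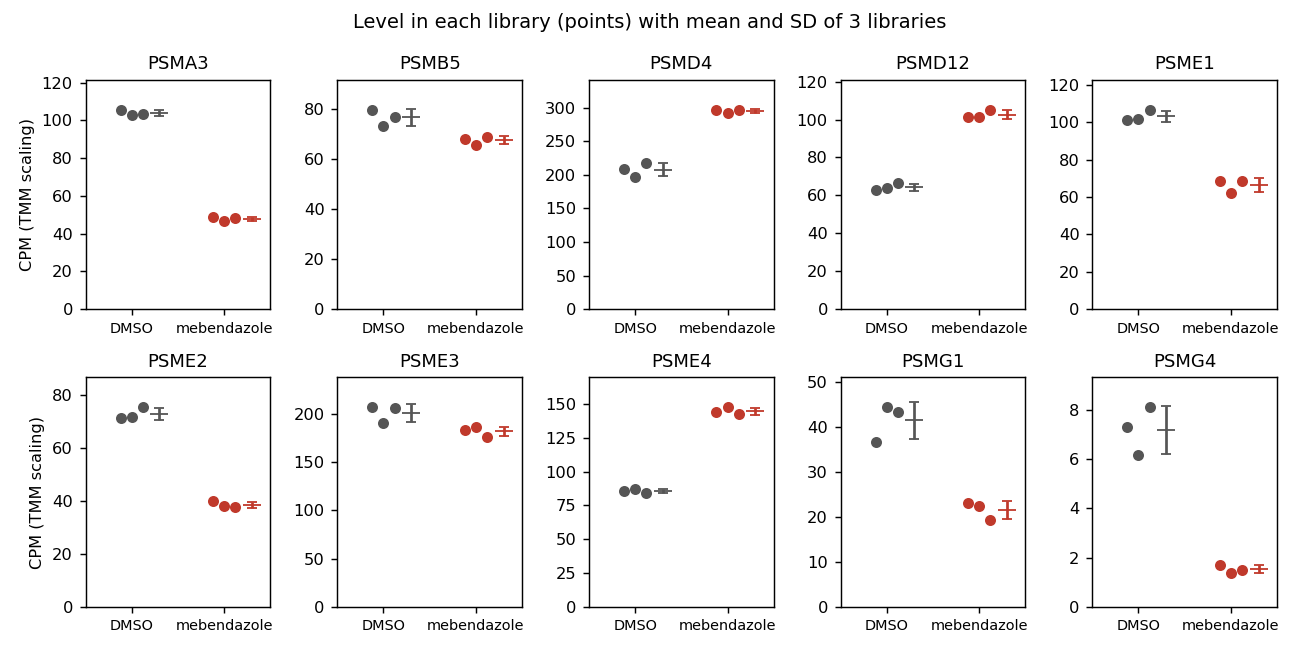
CPM (TMM scaling, axes from 0) of 10 members in each of the 3 DMSO and 3 mebendazole libraries, as points, with the mean and SD of each group beside them. PSMA3, PSME1, PSME2, PSMG1 and PSMG4 are lower with mebendazole, PSMD4, PSMD12 and PSME4 higher, and PSMB5 and PSME3 show a small gap between the groups.

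Ratios within a library carry no scaling between libraries. PSME4 had 0.833 ± 0.0395 reads per read of PSME1 in DMSO and 2.18 ± 0.168 with mebendazole, and 1.18 ± 0.0559 against 3.75 ± 0.128 per read of PSME2. PSME3 had 1.95 ± 0.0878 and 2.74 ± 0.226 reads per read of PSME1. Of 12 ratios computed, chosen after the values were seen, the groups did not overlap in any. Each had an exact two-sided permutation p of 0.10 (0.10 adjusted over the 12). That is the smallest that 3 against 3 libraries can give when libraries are exchanged without regard to pairs. Being fixed by the lack of overlap, these p-values add nothing to it.

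**Figure D5:**
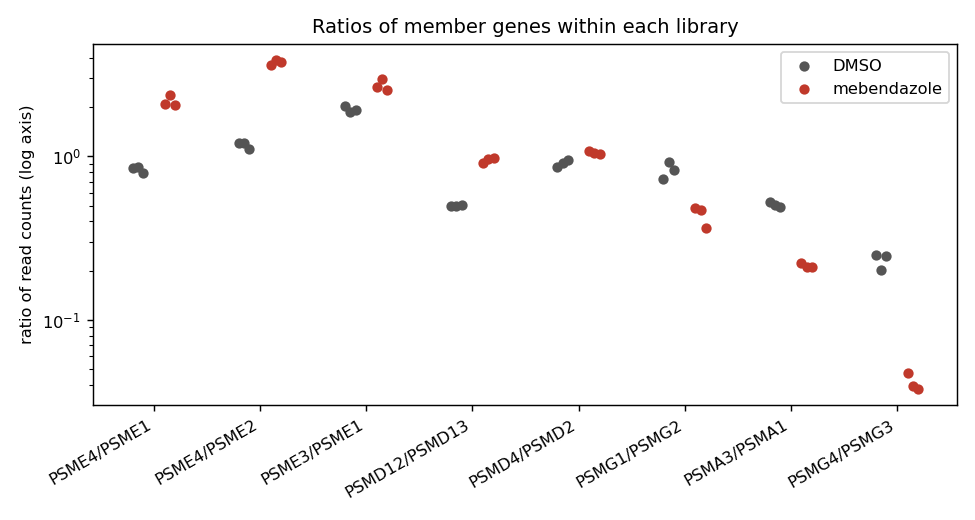
Ratios of the read counts of member genes in each library (log axis; not corrected for length), DMSO in grey and mebendazole in red, 3 libraries each. The PSME4 ratios and PSMD12/PSMD13 lie higher with mebendazole, and PSMG1/PSMG2, PSMA3/PSMA1 and PSMG4/PSMG3 lower.

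Assembly chaperones included the largest fall among the tested members, that of PSMG4, and of 7 genes 3 were lower and 3 higher, near the same shares of all tested genes (41.7% and 40.6%). PSMG1 and PSMG2 form a pair that builds the alpha ring, and PSMG3 and PSMG4 form another. PSMG4 was at 7.30, 6.17 and 8.11 CPM in DMSO, from 91 to 138 reads a library, and at 1.70, 1.38 and 1.495 CPM with mebendazole, from 18 to 24 reads. That was a 4.68-fold fall without overlap (log2 fold change -2.23, SD of 3 pairs 0.18, adjusted p = 6.0e-18, edgeR), and 2.45% of all tested genes had a log2 fold change as low or lower. Exons annotated for PSMG4 share bases with SLC22A23 and TUBB2B on the other strand, and the library kit does not mark strand.

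PSMG3 was at 31.0 ± 1.85 and 36.8 ± 2.21 CPM, called higher with TMM (0.25, adjusted p = 2.1e-04) but at 0.01 with library totals and not called. PSMG4 thus had 0.232 ± 0.0254 reads per read of PSMG3 in DMSO and 0.0415 ± 0.00495 with mebendazole. PSMG1 was at 36.7, 44.3 and 43.1 CPM in DMSO and 23.0, 22.4 and 19.2 CPM with mebendazole, without overlap (-0.94, adjusted p = 1.5e-19), with the widest spread over pairs of any tested proteasome gene (SD 0.25). PSMG2 did not pass with TMM, at 50.1 ± 1.94 and 49.2 ± 2.86 CPM, and was called lower with library totals (-0.27). Its exons share bases with CEP76 and SPIRE1 on the other strand.

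The 19S chaperones also went both ways. PSMD9, which holds ATPase subunits before they join the base, rose from 21.1 ± 1.66 to 30.4 ± 2.10 CPM (log2 fold change 0.53, adjusted p = 3.2e-10) and was called higher on both scales. Its exons share bases with WDR66 and another gene on its own strand, so its value is uncertain too. PSMD10, known as the oncoprotein gankyrin, fell from 42.1 ± 1.72 to 31.2 ± 2.23 CPM (-0.43, adjusted p = 2.8e-09), and it has 3 named pseudogenes. PSMD5 was at 28.8 ± 1.38 and 33.0 ± 2.26 CPM, called higher with TMM (0.19, adjusted p = 0.0048) but not in DESeq2 (adjusted p = 0.065), and at -0.05 with library totals.

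Of the 2 rows that are no proteasome part, PSMC3IP rose from 6.12 ± 0.291 to 10.8 ± 1.26 CPM (log2 fold change 0.81, adjusted p = 6.2e-09, edgeR), and its exons share bases with MLX on the other strand. PSMD6-AS2 was at 0.907 ± 0.290 and 1.64 ± 0.286 CPM (0.86, adjusted p = 0.0073), and was not called in DESeq2 (adjusted p = 0.11) or without pair 3 (adjusted p = 0.095).

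Other genes of the pathway, from a list of 38, were mostly called higher: 26 were higher and 8 lower, beside 40.6% and 41.7% of all tested genes, with a median log2 fold change of 0.33. With library totals 20 were higher and 14 lower. The small MAF factors, the DNA-binding partners of NRF1 and NRF2, rose in 3 of 3, with MAFF at 2.19 ± 0.0765 CPM in DMSO and 52.5 ± 1.82 CPM with mebendazole (4.58), MAFK at 1.14 and MAFG at 0.90 on the log2 scale. NFE2L1 itself, singled out after its value was seen, was at 179.6 ± 3.81 and 181 ± 5.14 CPM (0.01, adjusted p = 0.80), and was at -0.23 and called lower with library totals. Of its 7-gene processing pathway, NFE2L1 included, 4 were higher and 1 lower with TMM (median log2 fold change 0.27). With library totals 3 of these genes were higher and 2 lower (median 0.03).

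Partners of the assembled particle were higher in 9 of 12 and lower in 2, and with library totals higher in 8 and lower in 3. This list includes the cap subunits ADRM1 and SHFM1, which the name rule leaves out. Of all tested genes, 40.6% were higher and 41.7% lower with TMM, and 30.8% and 53.9% with library totals. These lists were written with earlier results of these data known. ZFAND5, which stimulates the proteasome, rose from 132 ± 5.14 to 316 ± 6.61 CPM (log2 fold change 1.26), and ZFAND2A, a heat shock and arsenite-induced partner, rose by 0.84. UCHL5, a ubiquitin hydrolase of the cap, fell from 104 ± 3.91 to 49.0 ± 1.31 CPM (-1.08). The 19S chaperone gene PAAF1, outside the name rule, fell from 31.4 ± 2.18 to 15.8 ± 1.46 CPM (-0.996). Ubiquitin genes and ubiquitin-activating enzymes were higher in 6 of 6 with TMM, and in 4 of 6 with 1 lower with library totals. Shuttle factors, which carry tagged proteins to the cap, were higher in 4 of 5 and lower in 1, and with library totals higher in 2 and lower in 3. The induced subunits PSMB9 (-2.74), PSMB8 (-2.63) and PSMB10 (-1.27) all fell.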

How the data were processed

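RNA-seq libraries of 3 DMSO and 3 mebendazole samples were prepared, per the labels' protocols, with the TruSeq RNA v2 kit. The authors deposited 1 table of raw counts, with gene symbols as rows and a column for each sample. STAR, bedtools, HTSeq, DESeq2 and hg19 are named without roles, per the submitters' processing notes; the sources used here do not give the annotation, strand setting or filters. The table had 0 columns of no sample.

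Counts were tested in edgeR 4.0.16 (R 4.3.3): filterByExpr, TMM, quasi-likelihood F test, two-sided, with the pair as a term, Benjamini-Hochberg adjustment over all 13591 genes tested, threshold 0.05. Each gene had 2 residual degrees of freedom, with a prior of 61.0, so single p-values rest mostly on the spread pooled over genes. SDs over pairs use log2 CPM with 0.5 reads added. Alternatives were DESeq2 1.42.0, other scalings and filters, no pair term, a test against a 1.5-fold change and leaving out each pair. The fit was also run on simulated data with far fewer changed genes than were called here, balanced in direction. That run cannot check the choice of scale between libraries. Replicates had Spearman correlations of 0.997 or more, and none agreed within sampling noise.

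Every row taken by the name rule is reported; of the other pathway genes, values are given for the 10 largest called changes. Members, lists and motifs were chosen with earlier results of these data known. Overlapping genes and pseudogenes are not named for every member that has them. Lengths and overlapping genes come from GENCODE release 29 (GRCh38) by symbol, all 47 matched, and no coordinates of it are printed; promoter windows come from RefSeq GRCh38.p14, whose build differs from that of the counts.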

Additional observations from a re-analysis of the deposited data

How the results depend on the processing

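Of 45 tested members, 28 had the same direction and call in all alternatives run except the test against a 1.5-fold change, and 7 of them in that test as well; PSMG4 and PSMC3IP, counted in both, fell below the stricter filter and were not run under it. With library totals, members called higher moved from 15 to 6, core subunits from 2 to 0, base subunits from 4 to 1 and chaperones from 3 to 1; base subunits called lower moved from 3 to 5, other pathway genes called lower from 8 to 14, and the members' median log2 fold change from -0.14 to -0.39. That scaling reversed PSMC4 (-0.053), PSMC6 (-0.22), PSMD1 (-0.062), PSMD7 (-0.13), PSMA1 (-0.12), PSMA6 (-0.23), PSMB4 (-0.088), PSMB6 (-0.18), PSMD5 (-0.050) and NFE2L1 (-0.23), by construction a shift of nearly all genes the same way.

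The test against a 1.5-fold change, which asks for more, called 2896 genes higher and 2878 lower in all, 3 members higher and 4 lower, core subunits 0 and 1, base 0 and 0, lid 1 and 0, activators and inhibitor 1 and 1, chaperones 0 and 2, and other pathway genes 7 and 5. With no filter on low counts the members' median was -0.18, PSMA6 was at -0.0047 and NFE2L1 at -0.0060. With a stricter filter, a mean of at least 10 CPM, the median was -0.19, PSMC6 was at -0.010, PSMA6 at -0.022 and NFE2L1 at -0.024; none of these genes was called in either setting. TMM factors were computed anew after each filter, and each median covers the members that the filter kept. The cause of these shifts was not tested. DESeq2 called 13 members higher and 23 lower.

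Leaving out 1 pair gave 14 to 15 members higher and 22 to 24 lower, and medians of -0.16 to -0.12. PSMA6 ranged from -0.0051 to 0.058 and NFE2L1 from -0.014 to 0.038, neither called. With no replicate block 15 members were called higher and 24 lower, as with it, and the pair term changed no member's call. Deviations of libraries of the same pair correlated at -0.0017, 0.05 and 0.02, and not every library correlated best with its own pair. Depth limits PSMG4, with 18 to 24 reads with mebendazole, and PSMD6-AS2.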
